A study of Mus musculus with 9 samples.

Results

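The class II major histocompatibility complex (MHC) genes of the mouse were followed through 9 libraries of spinal cord RNA. They are H2-Aa, H2-Ab1, H2-Eb1, Cd74, Ciita, H2-DMa, H2-DMb1, H2-DMb2, H2-Oa and H2-Ob, a list of 10 genes taken by symbol from the 27179 gene identifiers of the count table. All 10 were found and all 10 passed the filter on low counts, H2-DMb2 only through its EAE libraries. The mice were of the C57BL/6 strain and formed 3 groups of 3 biological replicates. One group was labelled Control, one had experimental autoimmune encephalomyelitis (EAE), a model of multiple sclerosis in which T cells attack central myelin, and the last, EAE+EHP-101, had EAE and was given oral EHP-101 (20 mg/kg). Mice of the last group are called treated below. EHP-101 is a code name for a compound known to act on PPAR gamma and on the cannabinoid receptor encoded by Cnr2. The sources used here do not give how EAE was induced, what the other groups received, when tissue was taken or which region of the cord. Treated replicate 1 stood apart from the other treated libraries, near Control for much of the set, and its value is given singly for each member.

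Class II molecules are pairs of an alpha and a beta chain that carry peptides from endocytosed proteins to the cell surface, where CD4+ T cells read them. H2-Aa and H2-Ab1 encode the chains of the molecule called I-A, and H2-Eb1 encodes the beta chain of I-E. Cd74 encodes the invariant chain, which blocks the peptide groove until lysosomal proteases remove it. H2-DMa pairs with H2-DMb1 or H2-DMb2 to form H2-M, which exchanges the last invariant chain fragment for other peptides. H2-Oa and H2-Ob form H2-O, an inhibitor of H2-M known mainly from B cells. Ciita encodes the coactivator that class II transcription depends on, and interferon gamma is a known inducer of it. In the central nervous system, class II is low on resting microglia and is carried during inflammation by microglia and by infiltrating leukocytes. C57BL/6 mice carry a defective alpha chain gene of I-E, so the H2-Eb1 transcript has no partner chain in this strain.

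Of the 10 genes, 8 lie on chromosome 17 of mm10 within 224 kb, from H2-Oa at 34092379 to the end of H2-Eb1 at 34316674. Ciita (gene 12265) lies on chromosome 16 from 10480072 to 10527564. Exons of H2-Oa share 200 bases with BC051537, a gene on the opposite strand. The kit keeps the strand, but the sources used here do not give the strand setting of the counting, so reads in these bases may count for either gene. H2-DMb1 and H2-DMb2 are close copies, and reads common to both may have been split or dropped, which makes their levels uncertain.

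Class II promoters are known for an X box, bound by the RFX complex, and a Y box, bound by NF-Y, upon which the Ciita protein assembles. The stretches of the members' promoters that hold these motifs are shown. Whether the motifs bear on the levels of the members was not tested. RefSeq promoter windows (GRCm38.p6, from 250 bases before to 50 after the gene start) were matched by gene identifier for 7 members, and those of 6 lay within 167 bases of the first exon counted here. The 2 windows of H2-DMa lay 10153 and 12839 bases from it and were not used. H2-Ab1, Cd74 and Ciita had no entry. Each stretch below has 80 bases, read 5′ to 3′ on the strand of the gene. Capitals mark ATTGG, the Y box core on this strand, and, where present, the 11 letters matching the X box.
H2-Aa: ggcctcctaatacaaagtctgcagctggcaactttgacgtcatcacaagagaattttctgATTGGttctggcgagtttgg
H2-Eb1: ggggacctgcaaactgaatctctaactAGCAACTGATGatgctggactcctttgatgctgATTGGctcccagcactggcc
H2-DMb1: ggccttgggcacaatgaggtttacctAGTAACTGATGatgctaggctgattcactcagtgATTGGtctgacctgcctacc
H2-DMb2: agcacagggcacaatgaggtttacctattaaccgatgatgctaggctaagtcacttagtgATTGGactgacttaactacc
H2-Oa: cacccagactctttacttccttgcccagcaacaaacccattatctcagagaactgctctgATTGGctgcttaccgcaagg
H2-Ob: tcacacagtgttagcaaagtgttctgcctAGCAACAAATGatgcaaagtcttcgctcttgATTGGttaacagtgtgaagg

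These stretches lie at chr17:34287852-34287931 on the minus strand for H2-Aa. On the plus strand they lie at chr17:34305748-34305827 for H2-Eb1, chr17:34153070-34153149 for H2-DMb1, chr17:34145099-34145178 for H2-DMb2, chr17:34092276-34092355 for H2-Oa and chr17:34238788-34238867 for H2-Ob. Motifs were searched on both strands. The Y box core CCAAT was in 6 of 6 windows, against 37.4% of all 32817 windows of the RefSeq table. The longer Y box CTGATTGG was in 3 of 6, those of H2-Aa, H2-Eb1 and H2-Oa, against 4.09%, and it contains the core. In H2-Aa it ran from base -51 to -44 and in H2-Eb1 from -62 to -55, counted from the start of the gene. The sequence GATTGG, chosen after the sequences were seen, was in 6 of 6, against 16.1%. The X box was in 4 of 6, against 14.8%. In H2-Eb1, H2-DMb1 and H2-Ob it stood 22, 23 and 20 bases before ATTGG, and 0.436% of all windows held both in this order within 30 bases. The match in H2-Oa lay further off, at -141 to -131. H2-Aa had no match to it and held TGACGTCA, the palindromic cyclic AMP response element, from -74 to -67 (1.79% of all windows). The letters ATGATGC, chosen after the sequences were seen, as were TGACGTCA and the joint search, were in the windows of H2-Eb1, H2-DMb1, H2-DMb2 and H2-Ob, against 2.46% of all windows, and overlap the end of the X box match where there is one. The stretches of the close copies H2-DMb1 and H2-DMb2 are much alike, so their matches are not independent. A match describes letters and does not show that a factor was bound. These are the promoters of genes whose levels follow.

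In Control cord the class II transcripts were scarce. The library totals ran from 30448507 to 32661741 counts, and levels are given as CPM, the count of a gene per 1000000 counts of its library after TMM normalisation. Cd74 (gene 16149), the 1 member not yet placed, lies on chromosome 18 from 60803849 to 60812652. H2-Aa stood at 1.45, 0.696 and 0.917 CPM in the 3 Control libraries, which is 94 counts in all. The other chain genes were as low, H2-Ab1 at 0.768 ± 0.0961 CPM (SD, n = 3) and H2-Eb1 at 1.43 ± 0.159 CPM. Cd74 stood at 1.997 ± 0.602 CPM. H2-DMb2 rested on 11 counts over the Control libraries, and Control replicate 2 had none. Levels of different genes were compared as CPM per kilobase of exon. On that scale the highest of the 10 in Control was H2-DMa, at 5.32 ± 0.126, and its libraries did not overlap with those of Cd74, the next at 1.41 ± 0.426. Cd74, H2-DMb1 (1.05 ± 0.240), H2-Aa (0.954 ± 0.36) and H2-Eb1 (0.854 ± 0.0951) followed, each overlapping with the next. H2-Ab1 came next at 0.644 ± 0.0805, apart from both of its neighbours. Ciita, H2-Oa and H2-Ob, from 0.343 to 0.387 per kilobase, overlapped in turn, and H2-DMb2 was last and apart from H2-Ob.

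EAE was compared with Control to ask what the disease model does to this set. The chain genes and Cd74 were the furthest apart. H2-Aa went to 179.5, 160.5 and 232 CPM in the EAE libraries, all above the 3 Control libraries. H2-Ab1 stood at 109, 97.1 and 131 CPM and H2-Eb1 at 102, 83.5 and 124 CPM. Cd74 reached 342 ± 26.0 CPM, the highest level of the 10. The log2 fold changes of these 4 genes ran from 6.17 (SE 0.70) for H2-Eb1 to 7.55 (SE 0.89) for H2-Aa, with edgeR adjusted p from 0.000110 to 0.000143.

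The genes that edit peptide loading had smaller fold changes. H2-DMa stood at 4.16 ± 0.0988 CPM in Control and 22.5 ± 1.19 CPM in EAE (5.41-fold, log2 2.44, SE 0.22, edgeR adjusted p = 3.54e-05). H2-DMb1 stood at 1.61, 1.01 and 1.44 CPM in Control and at 13.2, 12.2 and 10.8 CPM in EAE (log2 3.15, SE 0.35). Its copy H2-DMb2 was 0.900 ± 0.202 CPM in EAE, from 87 counts (log2 2.88, SE 0.56). The inhibitor genes rose as well. H2-Oa went from 0.390 ± 0.103 to 5.25 ± 1.005 CPM (13.4-fold, log2 3.74, SE 0.45) and H2-Ob from 0.916 ± 0.200 to 3.94 ± 0.281 CPM (4.28-fold, SE 0.28 on the log2 scale). Ciita had the smallest rise of the 10, with 2.69, 2.12 and 1.80 CPM in Control and 5.35, 4.16 and 5.83 CPM in EAE (2.32-fold, log2 1.21, SE 0.31, edgeR adjusted p = 0.00997). No Control library of any member overlapped with an EAE library.

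In all, 10 of 10 members were called higher in EAE (edgeR quasi-likelihood test, adjusted p under 0.05 over 16749 genes), where 20.2% of all genes tested were (37.0% in either direction). The median log2 fold change of the 10 was 3.45, against 0.01 over all genes tested. The groups were apart for 10 of 10, against 25.6% of all genes in this direction. H2-DMb2 passed the filter only through its EAE libraries, so its place in both counts was favoured in advance. The call of each member held with each library left out in turn and under each alternative tried. In bulk tissue, more or fewer cells of a type cannot be told apart from more or less RNA per cell, and each value here is open to both.

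**Figure D1:**
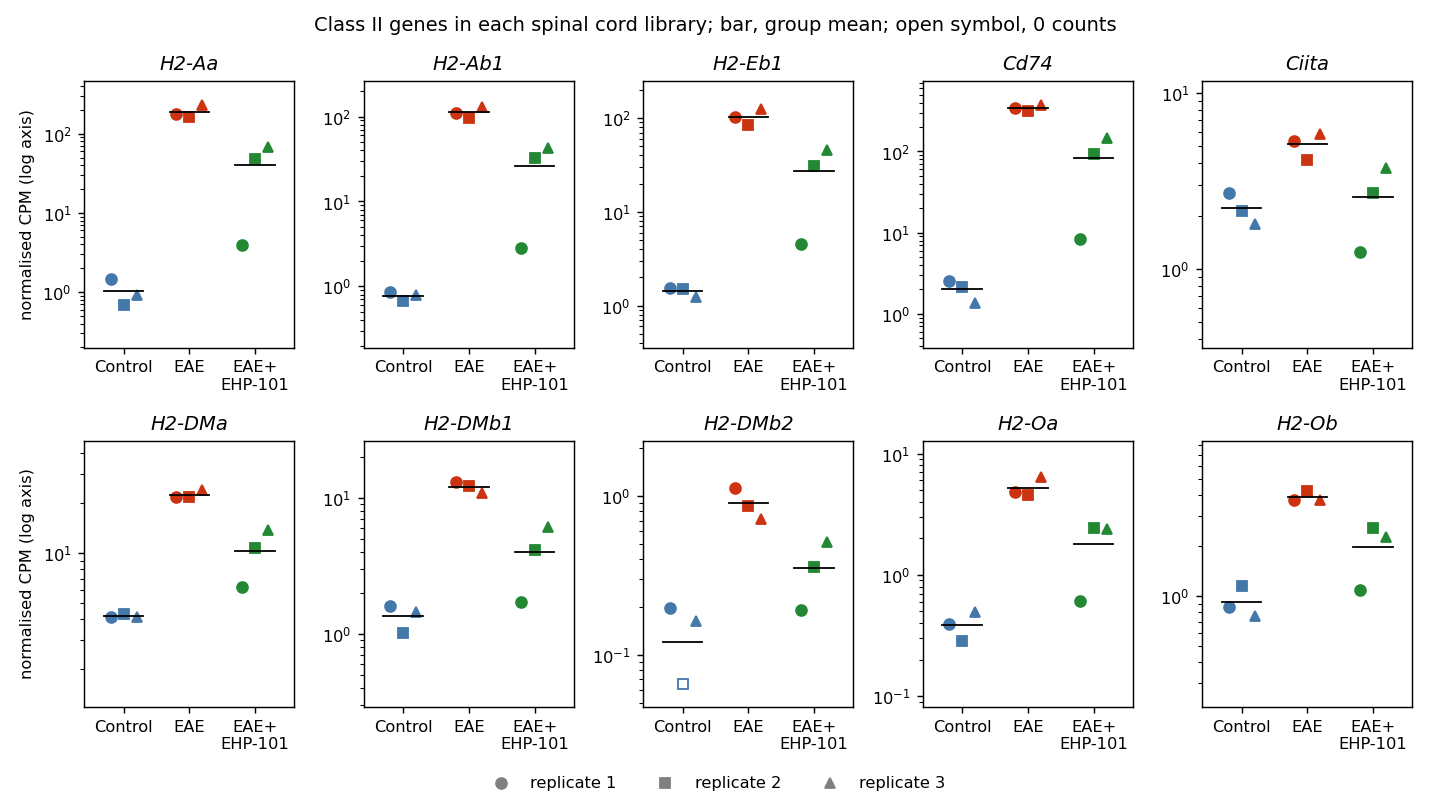
Normalised CPM of each class II gene (log axis, its own range per panel) in the 3 libraries of each group, with the group mean as a bar. The EAE libraries lie above the Control libraries in all 10 panels, and treated replicate 1 (green circle) is the lowest treated library in each.

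The order of the levels also changed. In EAE, Cd74 led at 242 ± 18.4 CPM per kilobase, followed by H2-Aa at 178 ± 34.4, H2-Ab1 at 94.2 ± 14.5, H2-Eb1 at 61.9 ± 12.2 and H2-DMa at 28.8 ± 1.53, and no neighbours among these 5 overlapped. H2-DMa, first in Control, was thus below 4 members in EAE. H2-DMb1 and H2-Oa came next at 9.40 ± 0.918 and 5.002 ± 0.958. At the low end H2-Ob, H2-DMb2 and Ciita overlapped, between 0.898 and 1.47 per kilobase. H2-Aa, H2-Ab1, H2-Eb1 and Cd74 together held 32.9% to 39.3% of the summed CPM of the 10 genes in Control and 93.2% to 94.3% in EAE.

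Treated mice were then compared with untreated EAE mice. Every member was lower in all 3 treated libraries than in all 3 EAE libraries, 10 of 10 against 16.9% of all genes in this direction. H2-DMb2, which passed the filter only through EAE, is among them. The treated libraries were far from alike. H2-Aa stood at 3.97 CPM in treated replicate 1 and at 47.7 and 68.7 CPM in replicates 2 and 3. Cd74 stood at 8.41, 93.4 and 147 CPM, H2-Ab1 at 2.81, 32.4 and 42.7 CPM and H2-Eb1 at 4.54, 30.8 and 45.7 CPM in the same order. As a share of the EAE mean, these 4 genes held 2.08% to 4.40% in treated replicate 1, 25.03% to 29.8% in replicate 2 and 36.1% to 44.3% in replicate 3. The coefficient of variation among treated libraries ran from 37.2% to 84.2% over the 10 genes, against 5.31% to 22.5% in EAE.

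**Figure D2:**
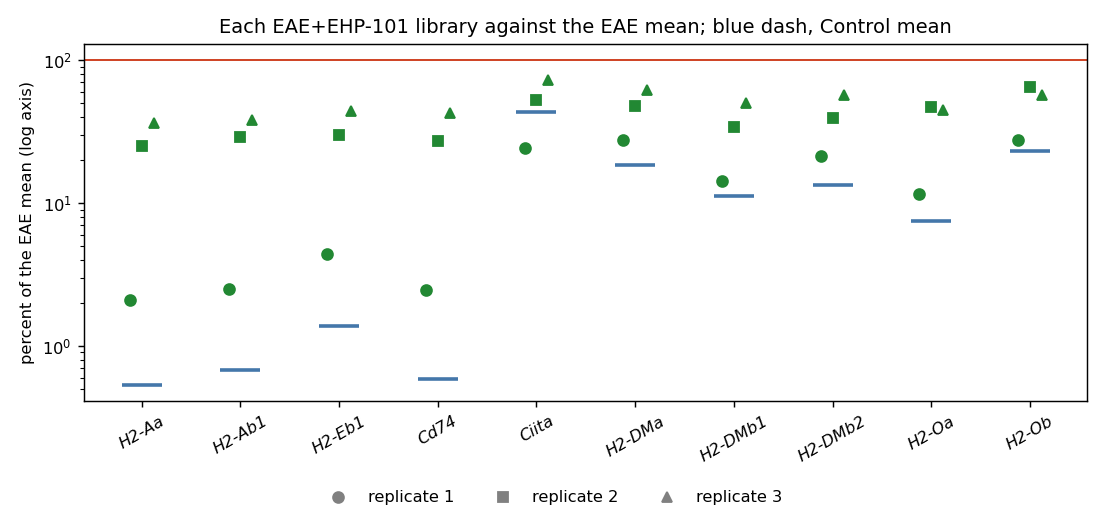
Each treated library as a percent of the EAE mean for each member (log axis), with the Control mean as a dash. For H2-Aa, H2-Ab1, H2-Eb1 and Cd74, treated replicate 1 lies at 2.08% to 4.40% and the other 2 libraries at 25.03% to 44.3%.

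With that spread, 4 of the 10 members were called lower in treated than in EAE mice (edgeR adjusted p under 0.05), where 4.81% of all genes tested were (5.24% in either direction). The 4 were genes of H2-M and H2-O. H2-DMa, at 6.24, 10.7 and 13.8 CPM in the treated libraries, was 2.19-fold lower (log2 -1.13, SE 0.20, edgeR adjusted p = 0.00840). H2-DMb1, at 1.73, 4.14 and 6.08 CPM, was 3.03-fold lower (log2 -1.60, SE 0.31, edgeR adjusted p = 0.0120). H2-Oa, at 0.608, 2.46 and 2.37 CPM, was 2.89-fold lower (log2 -1.53, SE 0.36, edgeR adjusted p = 0.0308). H2-Ob, at 1.09, 2.55 and 2.24 CPM, was 2.01-fold lower (log2 -1.004, SE 0.26, edgeR adjusted p = 0.0473). In each of these 4 genes treated replicate 1 was the lowest.

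The chain genes and Cd74 had larger differences and were not called. H2-Aa had log2 -2.25 (SE 0.60, edgeR adjusted p = 0.0561), H2-Ab1 log2 -2.11 (SE 0.56, adjusted p = 0.0533), H2-Eb1 log2 -1.94 (SE 0.50, adjusted p = 0.0501) and Cd74 log2 -2.05 (SE 0.62, adjusted p = 0.0968). Ciita had log2 -0.998 (SE 0.30, adjusted p = 0.0957) and H2-DMb2 log2 -1.34 (SE 0.46, adjusted p = 0.143). H2-DMb2 stood at 0.192, 0.356 and 0.512 CPM in the treated libraries. The median over the 10 was -1.57, against 0.00 over all genes tested. Whether the differences of called and uncalled members differ from each other was not tested here.

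These calls turned on single libraries. Without treated replicate 1, 7 of 10 members were called lower. H2-Aa, H2-Ab1, H2-Eb1 and Cd74 were then called at log2 -1.71, -1.58, -1.43 and -1.51 (edgeR adjusted p 0.000228 to 0.00141), and without treated replicate 3 at log2 -2.55 to -2.88 (adjusted p 0.0203 to 0.0438). Ciita was called without treated replicate 3 (adjusted p = 0.0248) and by the DESeq2 Wald test (adjusted p = 0.0302). The call of H2-DMa held with each library left out. That of H2-DMb1 ended without EAE replicate 1 (adjusted p = 0.0522), EAE replicate 2 (0.0507) or treated replicate 2 (0.0513). That of H2-Oa ended without Control replicate 2 (0.0540) or EAE replicate 1, 2 or 3 (0.0792, 0.0771 and 0.101). H2-Ob lost its call without Control replicate 1 or 2, any EAE library, or treated replicate 1 or 3 (adjusted p 0.0649 to 0.188), and with library totals in place of TMM factors (0.0578).

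The third comparison, treated against Control, shares its libraries with the other 2. Here 8 of 10 members were called higher, against 9.96% of all genes tested (19.8% in either direction), and the groups were apart for 7 of 10, against 19.0%. Of all calls in this comparison 50.4% were higher, and 62.3% with library totals. Cd74 (log2 5.37, SE 0.85), H2-Aa (log2 5.30, SE 0.90), H2-Ab1 (log2 5.07, SE 0.87) and H2-Eb1 (log2 4.24, SE 0.71) were higher than in Control, with edgeR adjusted p from 0.00494 to 0.00602. In treated replicate 1 alone, these 4 genes were at 3.19 to 4.21 times the Control mean, and in replicates 2 and 3 at 21.6 to 73.4 times.

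Among the loading genes, H2-DMa was higher than in Control (log2 1.30, SE 0.23), as were H2-DMb1 (log2 1.56, SE 0.37), H2-Oa (log2 2.21, SE 0.48) and H2-Ob (log2 1.09, SE 0.30). H2-DMb2 had log2 1.54 (SE 0.65, edgeR adjusted p = 0.115) and Ciita log2 0.21 (SE 0.32, adjusted p = 0.674). The libraries overlapped for Ciita, H2-DMb2 and H2-Ob. Ciita stood at 1.25, 2.68 and 3.75 CPM in the treated libraries, so that treated replicate 1 was below all 3 Controls and replicate 3 above them. Calls of H2-DMb1 and H2-Oa ended without Control replicate 2, treated replicate 2 or treated replicate 3 (edgeR adjusted p 0.0504 to 0.0694), and that of H2-Ob without Control replicate 1 or 3 or treated replicate 2 or 3 (0.0678 to 0.130).

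**Figure D3:**
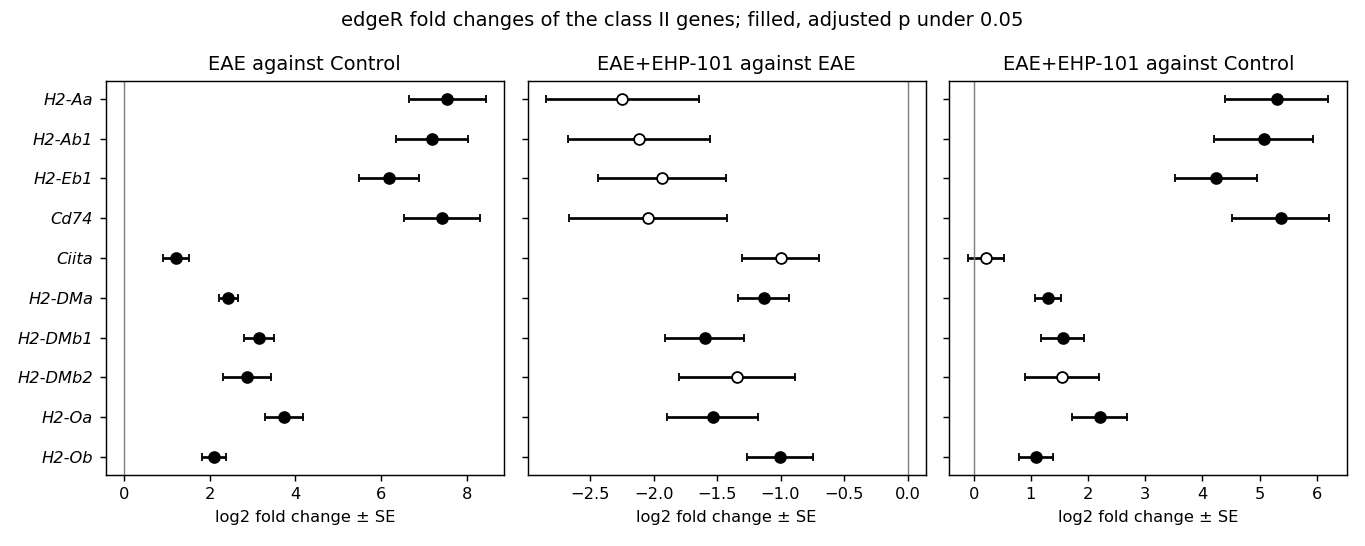
Log2 fold changes with SE of the 10 members in the 3 comparisons, where filled points passed an adjusted p of 0.05. All 10 are filled for EAE against Control, 4 for treated against EAE and 8 for treated against Control.

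Ratios of 2 genes within a library do not depend on how libraries are scaled, and 8 were compared over the 3 groups (exact permutation test of all 1680 assignments of the 9 libraries, p adjusted over the 8; the smallest p possible is 0.003571). H2-Aa to H2-DMa differed among the groups. The log2 ratio per kilobase was -1.95, -3.04 and -2.59 in Control, 2.58, 2.43 and 2.82 in EAE and -1.10, 1.70 and 1.86 in treated libraries (exact p = 0.003571, adjusted 0.00714). Control libraries thus held less H2-Aa than H2-DMa and EAE libraries 6.11 times as much. H2-Aa to Ciita was 2.41 in Control and 197 in EAE as a geometric mean (exact p = 0.003571, adjusted 0.00714), and its log2 was 4.07, 6.56 and 6.60 in the treated libraries.

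The same held against leukocyte genes outside the set. Relative to Ptprc, which encodes the leukocyte surface protein CD45, H2-Aa went from 0.694 in Control to 21.7 in EAE, and to 7.43 in treated libraries as a geometric mean. Relative to Csf1r, the growth factor receptor of microglia and macrophages, it went from 0.0347 to 2.69 and to 0.575. Both had exact p = 0.003571 (adjusted 0.00714). In bulk tissue, a change in the mix of cells can shift such ratios, as can a change within cells. These cannot be told apart here. The calls against H2-DMa, Ptprc and Csf1r ended without any 1 of the Control libraries (adjusted p 0.0629 to 0.0786 by the exact permutation test), and that against Ciita held. Between 2 groups of 3 the smallest exact p is 0.1, so no pair of groups could pass.

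Other pairs stayed closer. Cd74 to H2-Aa had geometric mean ratios of 1.49, 1.37 and 1.56 in Control, EAE and treated libraries (exact permutation p = 0.821, adjusted 0.821). H2-Aa to H2-Ab1, the 2 chains of I-A, had 1.42, 1.88 and 1.67 (exact permutation p = 0.107, adjusted 0.122), and it passed without Control replicate 1 (adjusted 0.0143). H2-DMa to H2-Oa was 14.1 in Control, 5.81 in EAE and 8.49 in treated libraries, and H2-DMb1 to H2-Ob was 3.05, 6.35 and 3.96. Neither passed (exact permutation, adjusted p = 0.0857 and 0.110). The first passed without treated replicate 1 or 2 (adjusted 0.0343 and 0.0400).

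**Figure D4:**
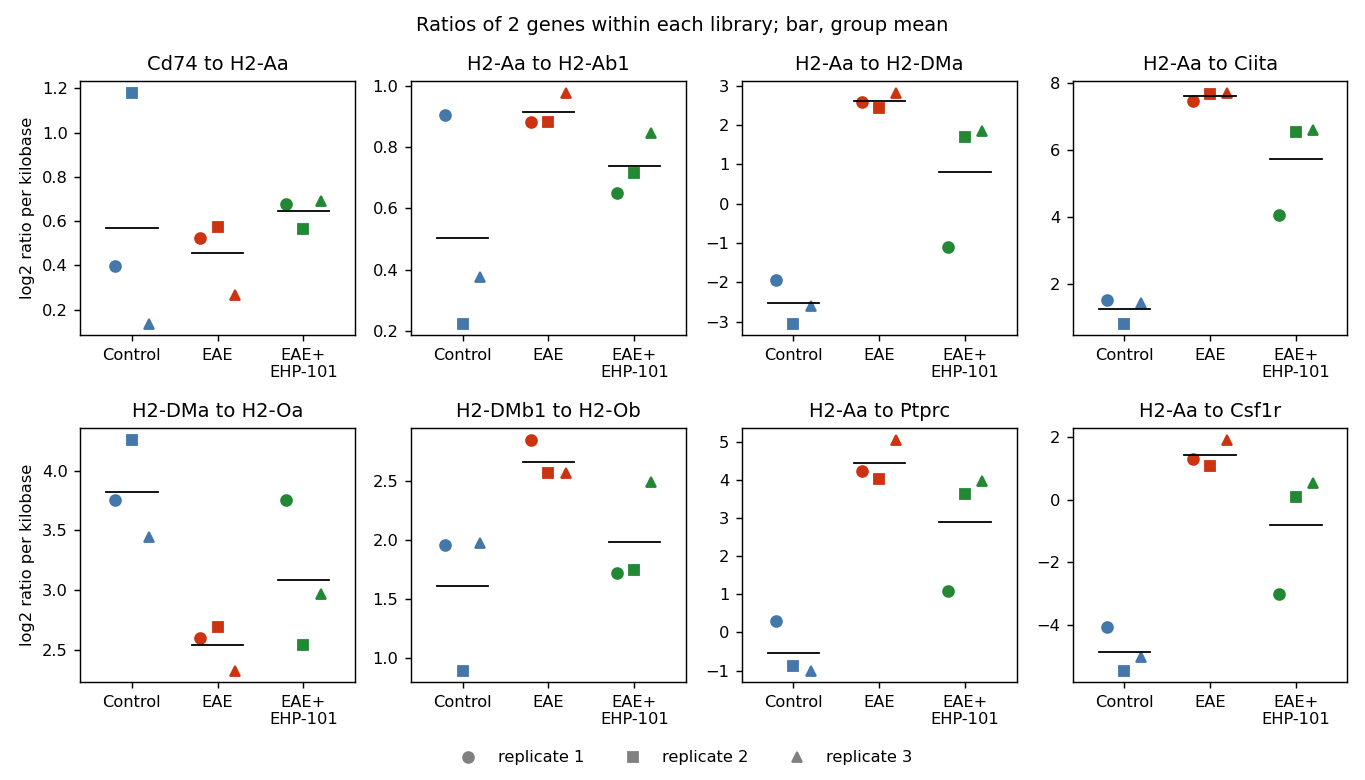
Log2 ratios per kilobase of 2 genes in each library, with group means as bars. H2-Aa against H2-DMa, Ciita, Ptprc and Csf1r separates Control from EAE by 4.97 to 6.36 log2 units, while Cd74 against H2-Aa overlaps in all 3 groups.

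The rest of the pathway was read from lists. Of all genes tested, 20.2% were called higher in EAE and 4.81% lower in treated than EAE mice. In treated against Control mice 9.96% were called higher. The counts of each list are to be read beside these shares. A lysosomal list, mainly the proteases that trim the invariant chain and antigens, with the reductase Ifi30, was called higher in EAE in 10 of 11 genes, lower in treated than EAE mice in 10 of 11 (8 of 11 without treated replicate 1), and higher in treated than Control mice in 9 of 11. Its median log2 fold changes were 1.35, -0.92 and 0.43. Ctss, which encodes cathepsin S, the protease known for the last cuts of the invariant chain, stood at 109, 108 and 143 CPM in Control, 744, 802 and 671 in EAE, and 161, 343 and 371 in treated libraries. It rose 6.16-fold in EAE (log2 2.62, SE 0.26) and was lower in treated mice (log2 -1.34, SE 0.24, edgeR adjusted p = 0.00874). Ifi30 (log2 2.74, SE 0.23), Ctsz (4.28-fold, SE 0.16 on the log2 scale) and Ctsd (log2 1.95, SE 0.15) rose too. In treated mice Ctsd was 2.72-fold and Ctsz 2.57-fold lower than in EAE.

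A list of 10 genes held mainly the factors that Ciita works with, and also Ezh2. Of these 10, 3 were called in EAE, near the 37.0% of all genes tested, with a median log2 of -0.05. Of the 3, 1 was higher, where 20.2% of all genes were, and 2 were lower, where 16.7% were. Between treated and EAE mice, edgeR and DESeq2 each called 0 of 10, and 1 had an unadjusted p under 0.05 by either tool. In treated against Control mice, 2 of 10, Crebbp and Ep300, were lower, where 9.82% of all genes tested were. Rfx5, a subunit of the X box complex, stood at 22.4, 23.3 and 21.4 CPM in Control, 20.1, 17.9 and 20.9 in EAE and 22.01, 21.1 and 19.7 in treated libraries (EAE against Control log2 -0.19, SE 0.08, edgeR adjusted p = 0.0821). Nfya, a subunit of the Y box complex, was higher in EAE (log2 0.31, SE 0.10), and the acetyltransferase genes Crebbp (log2 -0.49, SE 0.09) and Ep300 (log2 -0.30, SE 0.07) were lower.

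Upstream of Ciita, the interferon gamma pathway was called higher in EAE in 6 of 9 tested genes and lower in treated than EAE mice in 5 of 9 (4 of 9 without treated replicate 1), with median log2 fold changes of 0.99 and -0.58. The shares of all genes tested were 20.2% and 4.81%. Irf1, which encodes a factor that binds a Ciita promoter, went from 5.75, 7.63 and 6.06 CPM in Control to 26.2, 23.1 and 23.8 in EAE, with 6.91, 15.4 and 16.0 in treated libraries. Its log2 fold changes were 1.91 (SE 0.25) for EAE against Control and -0.93 (SE 0.24, edgeR adjusted p = 0.0447) for treated against EAE. Ifngr1, a receptor chain, had log2 0.99 (SE 0.11) and -0.68 (SE 0.11), and the feedback inhibitor Socs3 log2 2.05 (SE 0.24) and -1.32 (SE 0.23). Ifng itself did not pass the filter, at 0 CPM in all 3 Controls, 0.0936 to 0.181 CPM in EAE and 0 to 0.0970 CPM in treated libraries.

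Genes known to restrain class II or to turn it over were called higher in EAE in 4 of 7 tested, against 20.2% of all genes tested, with a median log2 of 1.09. Among the called were Prdm1, Tgfb1 (log2 1.49, SE 0.16) and the interleukin 10 receptor gene Il10ra (log2 1.71, SE 0.22). The turnover genes Marchf1 (log2 0.08, SE 0.09, edgeR adjusted p = 0.515) and Marchf8 (log2 -0.10, SE 0.08, adjusted p = 0.382) were not called. In treated against EAE mice 3 of 7 were called lower, Tgfb1 and Il10ra among them, against 4.81%. Costimulatory and checkpoint ligands were higher in EAE in 6 of 8 and lower in treated than EAE mice in 3 of 8, Cd86, Icam1 and Cd274, with median log2 fold changes of 1.15 and -0.83. The shares of all genes tested were again 20.2% and 4.81%. Cd86, the ligand of CD28, went from 2.79, 2.56 and 2.92 to 15.7, 19.3 and 13.7 CPM, with 3.61, 7.21 and 8.39 in treated libraries (log2 2.55, SE 0.26, and -1.34, SE 0.24). Cd80, the related ligand, had log2 1.38 (SE 0.31) in EAE and -0.93 (SE 0.30, edgeR adjusted p = 0.117) in treated against EAE mice. Cd40, the receptor for T cell help, had log2 0.91 (SE 0.34, adjusted p = 0.0574) and -0.72 (SE 0.34, adjusted p = 0.329).

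On the T cell side, 9 of 9 tested genes were higher in EAE, where 20.2% of all genes tested were. In treated against EAE mice 6 of 9 were lower (4 of 10 without treated replicate 1), against 4.81%. In treated against Control mice 7 of 9 were higher, against 9.96%. Cd3d, Cd3e, Cd3g, Cd28, Ctla4 and Icos passed the filter on low counts only through their EAE libraries, which favours a rise in EAE among the genes tested. The medians were log2 4.07, -1.89 and 2.38. Cd4, the coreceptor that binds class II, stood at 0.197, 0.127 and 0.229 CPM in Control, 3.29, 2.98 and 3.15 in EAE and 0.320, 1.197 and 2.31 in treated libraries, where treated against EAE had log2 -1.30 (SE 0.43, edgeR adjusted p = 0.128). Lag3, an inhibitory receptor for class II, had log2 3.25 (SE 0.33) in EAE and was lower in treated mice (log2 -1.18, SE 0.29). It stood at 5.49, 4.84 and 5.50 CPM in Control, 53.1, 53.4 and 44.3 in EAE and 9.72, 31.3 and 25.3 in treated libraries. Cd3d, Cd3e and Cd3g had EAE means of 1.77, 1.38 and 2.54 CPM. Which cells held the Lag3 transcripts was not tested. Within the class II region, the class I processing genes Psmb8, Tap1 and Psmb9 rose in EAE (log2 3.05, 2.59 and 2.90) with Tap2, and Psmb8 was the 1 gene of 6 tested in that list called lower in treated mice (log2 -1.24, SE 0.29). H2-Eb2, a second beta chain gene of the region, stood at 0.197 to 0.538 CPM in Control and 0.192 to 0.405 CPM in EAE. H2-Ea, the defective I-E alpha chain gene, held 8 counts in Control replicate 1, 1 in EAE replicate 2 and 0 elsewhere.

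Many markers of cells that can carry class II moved with the set, and their part in it was not tested. Of all genes tested, 20.2% were called higher in EAE and 4.81% lower in treated than EAE mice. The summed CPM of the 10 members ran from 13.04 to 16.2 in Control, 705 to 907 in EAE and 30.8 to 333 in treated libraries. The 10 monocyte and macrophage markers summed to 13.3 to 20.7, 407 to 565 and 33.3 to 78.5 CPM, with 6 of 10 called higher in EAE and 4 of 10, Ccr2, Lyz2, Ms4a7 and Plac8, lower in treated than EAE mice. In treated libraries the sum stood at 7.23%, 11.7% and 17.03% of the EAE mean, against 3.86%, 28.5% and 41.7% for the class II sum. Most of this sum is 1 gene, the lysozyme gene Lyz2, at 377, 542 and 391 CPM in EAE and at 5.16%, 10.3% and 14.5% of its EAE mean in treated libraries. Ccr2, a chemokine receptor gene of monocytes, stood at 15.2%, 34.9% and 57.5%, and Ms4a7 at 7.01%, 11.6% and 8.30%. Ly6c2, Cd163 and Chil3 were not called in EAE against Control or in treated against EAE mice. Ly6c2 had log2 -1.51 in EAE (SE 0.95, edgeR adjusted p = 0.237) and stood at 113% to 128% of its EAE mean in treated libraries. Its Control level rested on replicate 1, at 4.73 CPM, where every other library stood at 0.906 CPM or lower. The direction of its change in EAE is therefore uncertain. Cd163 had log2 -0.15 in EAE (SE 0.29, edgeR adjusted p = 0.719), and Chil3 stood at 211% of its EAE mean in treated replicate 1. The 10 microglia markers summed to 423 to 530, 948 to 1274 and 515 to 701 CPM, with 8 of 10 higher in EAE and 7 of 10 lower in treated mice.

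The 10 T cell markers summed to 1.64 to 2.13, 18.5 to 21.8 and 2.85 to 11.7 CPM, at 14.3%, 37.7% and 58.6% of the EAE mean in treated replicates 1, 2 and 3. All 10 were higher in EAE, against 20.2% of all genes tested. In treated against EAE mice 3 of 10, Cd3d, Cd3g and Cd2, were lower, against 4.81%. Cd3d, Cd3e, Cd3g, Cd8a, Cd2, Cd5 and Cd6 passed the filter only through their EAE libraries, which favours a rise in EAE. The markers Cd3d, Cd3e, Cd3g and Cd4 are also in the list of the T cell side. Dendritic cell markers were called higher in EAE in 8 of 10. Of these, Cd209a, Ccr7 and Clec10a passed the filter only through their EAE libraries. In treated against EAE mice 2 of 10, Itgax and Cd209a, were called lower. Flt3 (log2 -0.18, SE 0.14, edgeR adjusted p = 0.347) and Zbtb46 (log2 -0.35, SE 0.13, adjusted p = 0.0608), 2 genes used to define the lineage, were not called in EAE. They already stood at 28.1 to 41.8 and 4.29 to 4.87 CPM in Control, and which cells held these transcripts was not tested. In the B cell list only 4 of 10 genes passed the filter, and Cd79b and Cd22 rose in EAE while Fcer2a fell. Cd79a, a defining B cell gene, stood at 0.160 to 0.302 CPM in EAE against 0.127 to 0.230 in Control. Cd22, found on B cells and also on microglia, had log2 5.04 (SE 0.57). No list had a marker at 0 in every library.

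Treated replicate 1 had the highest summed neutrophil markers, with S100a8 at 15.7 CPM and S100a9 at 29.5 CPM against at most 6.19 and 10.4 CPM elsewhere. Csf3r, the growth factor receptor gene in the same list, went the other way, at 10.9 CPM in that library, 20.05 and 22.4 CPM in the other treated libraries and 28.2 to 41.5 CPM in EAE. It was the 1 gene of the list called in EAE (log2 2.07, SE 0.23) and in treated against EAE mice (log2 -1.02, SE 0.22). In treated against Control mice 6 of 7 tested genes of the list were called higher, against 9.96% of all genes tested (median log2 2.22). S100a8 stood at 5.50 and 5.32 CPM in treated replicates 2 and 3, against at most 3.47 CPM in Control. In treated replicate 1 the sum of the neutrophil list was 137% of the EAE mean. Those of the class II, T cell and monocyte lists were at 3.86%, 14.3% and 7.23%. Markers of cord tissue were present in all libraries. The 8 neuron markers summed to 4550 to 4895 CPM in Control, 3906 to 4156 in EAE and 4053 to 4303 in treated libraries. The sum of the skeletal muscle list was 41.1 CPM in Control replicate 1 and at most 3.07 CPM in any other library.

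**Figure D5:**
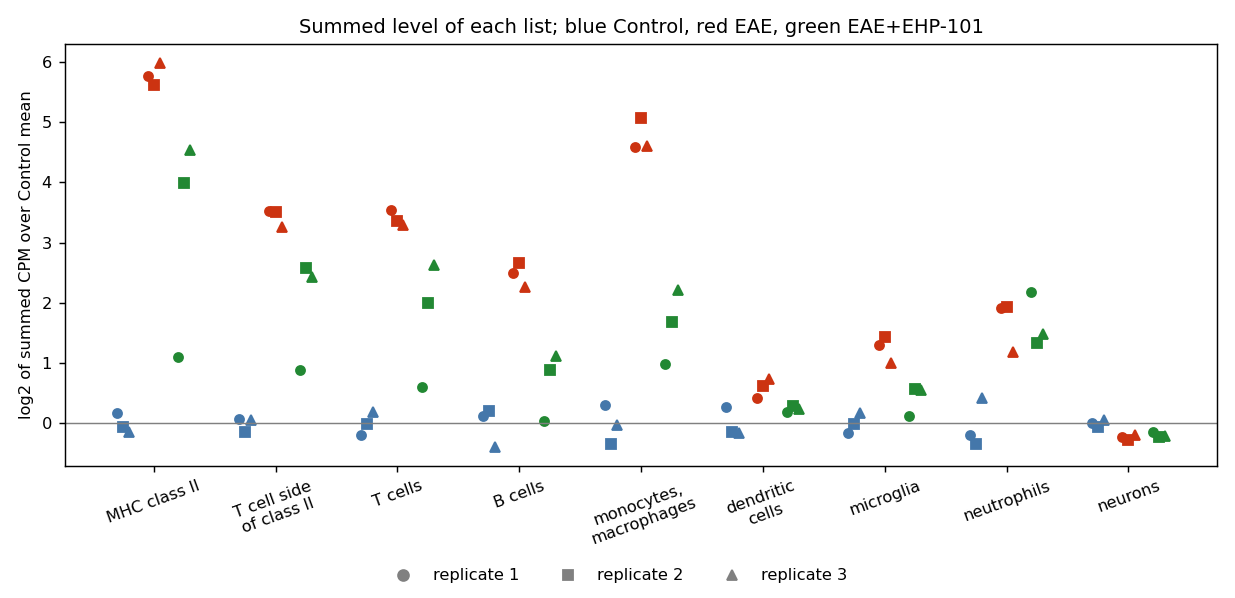
Log2 of the summed CPM of each marker list over its Control mean, per library. In treated replicate 1 the class II sum is 30.8 CPM, against 13.04 to 16.2 CPM in the Controls, while its neutrophil sum is the highest of the 9 libraries. Single genes hold much of some sums. In EAE replicate 1, Lag3 holds 53.1 of the 70.1 CPM of the T cell side and Csf3r 38.3 of the 60.4 CPM of neutrophils. In Control replicate 1, Cd24a and Flt3 hold 63.6 and 41.8 of the 112 CPM of dendritic cells.

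Among 12922 protein-coding genes outside the set whose mean log2 CPM was 1 or more (predicted genes left out), 5 had the profile closest to the mean of H2-Aa, H2-Ab1, H2-Eb1 and Cd74. Likeness was the root mean square difference of log2 CPM over the 9 libraries after centring each gene on its own mean, a description without a test, in which the gap between groups dominates. The closest was Cxcl9, an interferon gamma induced chemokine, at 0.617, where the median gene was at 3.06. Cxcl9 stood at 0 to 0.131 CPM in Control, 16.5, 12.6 and 20.1 in EAE and 0.704, 10.9 and 12.3 in treated libraries. Itgax, the integrin chain CD11c, followed at 0.788, Cybb of the phagocyte oxidase at 0.873, Ccn5 at 0.889 and Cst7 at 0.936. For comparison, the members outside these 4 lay between 1.54 (H2-Oa) and 2.53 (Ciita). In treated replicates 1, 2 and 3 Itgax stood at 1.15, 5.89 and 6.31 CPM and Cst7 at 0.320, 4.37 and 4.29 CPM. Their EAE levels were 32.0 ± 8.32 and 28.4 ± 5.60 CPM. Treated against EAE had log2 -1.04 (SE 0.58, edgeR adjusted p = 0.426) for Cxcl9, and Itgax (log2 -2.85, SE 0.39), Cybb (log2 -2.61, SE 0.38), Ccn5 (log2 -2.44, SE 0.38) and Cst7 (log2 -3.24, SE 0.50) were called lower.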

How the data were processed

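RNA from 9 mouse spinal cords was measured by poly-A selected, strand-keeping single-end sequencing, per the labels' protocols. The authors deposited 1 table of raw counts per Entrez gene, with exon coordinates and lengths, per the file headers. The build mm10 and, as tools, featureCounts 1.6.1, HISAT2 2.1.0, Trimmomatic 0.36 and DESeq2 1.20.0 come from the submitters' processing notes, which give them no roles here. How multiply mapped reads were treated is not given.

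Symbols came from RefSeq (GRCm38.p6) for 25275 of 27179 identifiers. In R 4.3.3, edgeR 4.0.16 (filterByExpr, 16749 genes kept, TMM) fitted all 9 libraries in 1 quasi-likelihood model with a term for each group, and adjusted p-values (Benjamini-Hochberg) cover all genes tested. SE is the log2 fold change over the root of F. Ratios used counts plus 0.5. The fit was tested on simulated data. Chi-square tests put replicate pairs of a group at 6.56 to 26.9 per degree of freedom, above sampling noise, so each library counted singly. The p-values measure the spread between the mice of 1 experiment.

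Members and lists were chosen with earlier results of these data known. Named are all 10 members, up to 3 called genes of smallest p per list and comparison whose mean log2 CPM is 0 or more (not all are described), 15 genes whatever their values, and the 5 genes nearest in profile. S100a8, S100a9, Ms4a7, Ly6c2, Cd163, Cd79a, Cd79b, Fcer2a, Tap2, Prdm1, H2-Eb2, H2-Ea and others of counts up to 5 were named after their values were seen. The same holds for Cd3e, Cd28, Ctla4, Icos, Cd8a, Cd5, Cd6, Cd209a, Ccr7, Clec10a, Marchf1, Marchf8 and Ezh2. Alternatives were DESeq2 1.42.0 size factors and Wald test, library totals, no filter, the gene length trend removed, a replicate block and each library left out. Some listed genes are not reported here.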

Additional observations from a re-analysis of the deposited data

How the results depend on the processing

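For EAE against Control, the calls of all 10 members and the 10 of 10 count held in each alternative, and total calls ran from 4256 to 6243 (6191 as reported) and from 4378 to 7095 with 1 library left out. For treated against EAE, the count of members called lower was 4 as reported, 7 with no filter on low counts, and 1 to 8 with 1 library left out. Total calls were 877, and 370 to 1170 with 1 library left out (370 without EAE replicate 2). For treated against Control, 8 members were called, and 5 to 8 with 1 library left out. Total calls were 3314, 1554 with the gene length trend removed, and 629 to 3739 with 1 library left out (629 without treated replicate 2, 1016 without treated replicate 3). Ciita turned from log2 0.21 to -0.18 in that comparison without treated replicate 3 (to 0.54 without treated replicate 1), and the ratio of Cd74 to H2-Aa, EAE minus Control, from -0.12 to 0.19 without Control replicate 2 (to -0.33 without Control replicate 3), neither with a call. The cause was not tested. Prior counts of 0.1 or 2 moved no ratio across its threshold. Low counts limit the precision of H2-DMb2 (11 counts in Control) among the members.

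Replicate numbers are shared by the groups without a stated meaning. Deviations of same-numbered libraries correlated at -0.187 to 0.123, and a library was most like its own number in 2 of 18 comparisons, so the numbers were not taken to pair mice. With the replicate block, members called lower in treated than EAE mice went from 4 to 7 (H2-Aa, H2-Ab1 and H2-Eb1 at adjusted p = 0.0413, 0.0365 and 0.0348), and total calls went to 5345, 722 and 2272 in the 3 comparisons.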
